A study of Mus musculus with 16 samples.

Results

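The mitochondrial solute carriers of the Slc25 family were followed across 4 groups of mouse liver samples: tumor and nontumor liver, each on a normal diet (ND) or a ketogenic diet (KD). The members are all listed genes whose symbol is Slc25a followed by a number, with Slc25a20 set aside, that reached a deposited TPM (a length-corrected share of a library's transcripts) of 1 in 4 or more of the 16 libraries. Of 45 such symbols, 40 met that minimum, out of 13432 genes at the same minimum and 20601 genes listed in all. The other 5 symbols were Slc25a31, Slc25a35, Slc25a41, Slc25a43 and Slc25a53, and none of them exceeded 1.53 rescaled TPM in any library.

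Liver tumors had been induced in all 8 mice by hydrodynamic delivery of plasmids for human N-Ras (19 µg per mouse) and human c-Myc (1 µg) together with a plasmid for Sleeping Beauty transposase (2 µg), which inserts the transgenes into the genome of liver cells. After 4 weeks 1 group of mice was switched to the ketogenic diet (89.5% fat, with 10.4% protein and 0.1% carbohydrate) and the other stayed on the normal diet, for another 4 weeks. Tumor and nontumor tissue was taken from the same 8 livers at 8 weeks, giving 4 libraries in each of 4 groups, so that the nontumor samples come from plasmid-treated, tumor-bearing livers. Strain, sex and age are not given in the labels used here. In such bulk samples, fewer cells of a type and less RNA per cell cannot be told apart.

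Slc25 carriers are small proteins of the inner mitochondrial membrane that exchange nucleotides, phosphate, organic acids, amino acids and cofactors between cytosol and matrix. Most of them reach the membrane through the outer membrane pore and the small TIM chaperones. In hepatocytes they serve ATP export, the malate-aspartate shuttle, the urea cycle, citrate export for fat synthesis and the supply of coenzyme A and NAD to matrix enzymes.

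The depth over the listed genes was 3.42 to 12.89 (in units of 1e6 reads) per library, recovered from the steps between TPM values. The listed genes made up 49.96% to 88.45% of the TPM total in 15 libraries but 7.38% in the library ND nontumor 4, and all values below are therefore TPM divided by a median-of-ratios factor per library (0.126 for ND nontumor 4), called rescaled TPM. This share was 49.96% to 66.48% in ND tumors and 77.05% to 79.93% in KD tumors, without overlap. The libraries KD nontumor 1 and 2 stood apart from KD nontumor 3 and 4: their mean log2 values differed by at least 1 in 11.7% of tested genes and in 6 of 40 members (15%). Libraries 1 and 2 were also deeper, at 10.53 and 10.38 against 6.01 and 5.46 (1e6 reads). Their listed genes held 86.65% and 88.45% of the TPM total, against 66.79% and 73.05% in 3 and 4. The part of depth and share in the distance between these pairs was not tested. For the named members called in KD tumors, the fold changes without each of these pairs are given below, either beside the result or where the pairs are described. The exceptions are Slc25a2, Slc25a38 and Slc25a48 without KD nontumor 3 and 4, where only the adjusted p is given. Hepatocyte markers were listed at high levels in every library, with summed rescaled TPM from 31033 to 158725. Of these 7 markers 2 were lower and 0 higher in tumors on each diet. Their sum nevertheless ran higher in KD tumors, at 111174 to 158725 against 31033 to 79462 in KD nontumor liver, without overlap. On ND the sums overlapped, at 57750 to 109174 in tumors against 44806 to 83035 in nontumor liver. The 6 Kupffer cell markers were lower in tumors in 6 cases on ND and 5 on KD; they summed to 344 to 472 rescaled TPM in ND nontumor liver against 16.1 to 39.7 in ND tumors, and to 184 to 365 against 35.6 to 67.5 on KD. Of the 6 monocyte and macrophage markers 1 was higher on ND and 2 on KD, and 0 were lower; they summed to 183 to 244 against 577 to 2067 on ND and to 74.9 to 295 against 831 to 2663 on KD. Of 5 tested T and NK cell markers 2 were higher on ND and 1 on KD, of 5 endothelial markers 3 were higher and 2 lower on ND, and of 5 stellate cell markers 2 were higher and 2 lower on ND and 2 higher and 1 lower on KD. Of 3 tested cholangiocyte markers 1 was higher and 1 lower in tumors on ND, and the 1 tested adipocyte marker was lower on both diets. Between the diets in tumors, 2 endothelial markers were higher and 2 lower on KD, and 2 Kupffer cell markers were higher. There 1 of 2 tested neutrophil markers was also higher and 1 cholangiocyte marker lower on KD. The part of these cell types in the results below was not tested.

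Levels within the family spanned more than the differences between groups. Over all 16 libraries 6 members had a mean of at least 100 rescaled TPM, 19 lay between 10 and 100 and 15 lay under 10. Slc25a47, a carrier known for its expression in liver, had the highest mean in each of the 4 groups, although in both tumor groups its range overlapped those of Slc25a1 and Slc25a39 (329.7 ± 65.4 in KD tumors). Its level was 643 ± 51.8 (SD, n = 4) rescaled TPM in ND nontumor liver, 312 ± 64.8 in ND tumors, 467 ± 237 in KD nontumor liver and 376 ± 115 in KD tumors. It was followed, depending on the group, by Slc25a39, Slc25a1, Slc25a10, Slc25a5, Slc25a3 and Slc25a22. At the other end, Slc25a18 and Slc25a40 stayed near 1 rescaled TPM or below in most libraries.

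The summed level of the 45 symbols was 2275 ± 210.3 rescaled TPM (SD, n = 4) in ND nontumor liver and 1600 ± 188 in ND tumors, and the 2 groups did not overlap. As a share of the listed TPM they did overlap, at 0.320% to 0.383% in ND nontumor liver and 0.273% to 0.321% in ND tumors. Slc25a47 made up on average 28.3% of the sum in ND nontumor liver and 19.6% in ND tumors. On KD the sums were 2081 ± 254 in nontumor liver and 2071 ± 286 in tumors, and these groups overlapped.

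**Figure D1:**
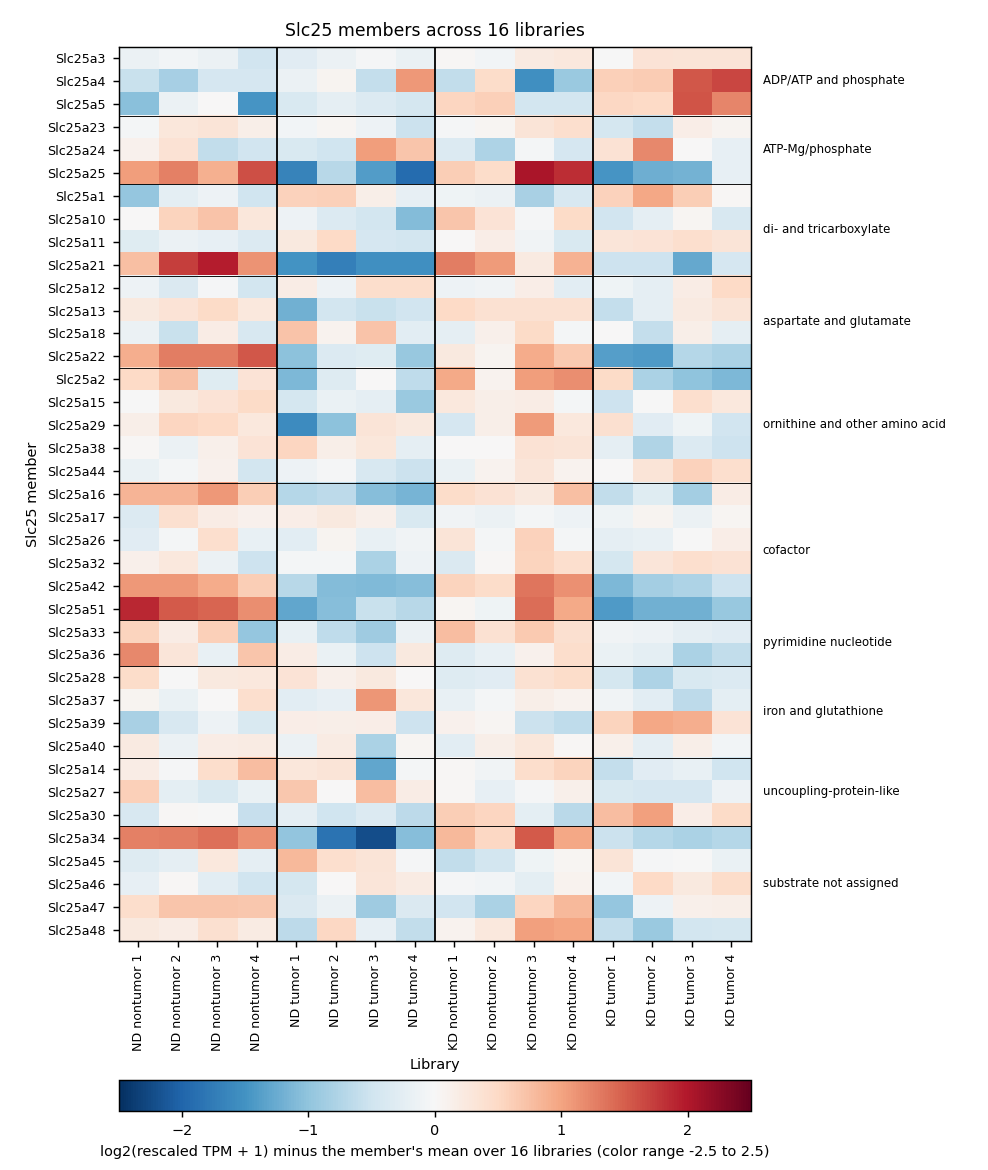
The named members in rows, grouped by substrate, and the 16 libraries in columns; color is log2(rescaled TPM + 1) minus the member's mean over the libraries. Slc25a25, Slc25a21, Slc25a22, Slc25a16, Slc25a42, Slc25a51 and Slc25a34 are higher in the 8 nontumor than in the 8 tumor libraries.

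On the normal diet, 12 of 40 members were lower in tumor than in nontumor liver and 1 was higher (limma on log2(rescaled TPM + 1), n = 4 against 4, adjusted p under 0.05). Among all 13432 tested genes 14.2% were lower and 14.5% higher, so that the members' 30.0% lower stands beside a background of 14.2% and their 2.5% higher beside 14.5%. The groups did not overlap for 12 members on the lower side and for 0 on the higher side, against 13.7% and 13.8% of all tested genes. The members' median log2 fold change was -0.23, against -0.00 over all tested genes, and 26 of 40 members were negative, against 19 on the deposited scale and 20 when all listed genes were scaled to 1 common sum. On the ketogenic diet 13 members were lower and 3 higher (32.5% and 7.5%, against 16.2% and 16.3% of all tested genes), with a median log2 fold change of -0.31 against 0.01 and 26 of 40 members negative (32 on either other scale). There the groups did not overlap for 14 members on the lower and 4 on the higher side (17.3% and 15.8% of all tested genes).

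Lower in tumors on both diets were 9 members, among them Slc25a10, Slc25a16, Slc25a21, Slc25a22, Slc25a25, Slc25a34, Slc25a42 and Slc25a51. They make up 75% of the ND list and 69.2% of the KD list, where the corresponding shares for all tested genes were 57% and 50%. Slc25a1 was the one member higher on both diets.

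**Figure D2:**
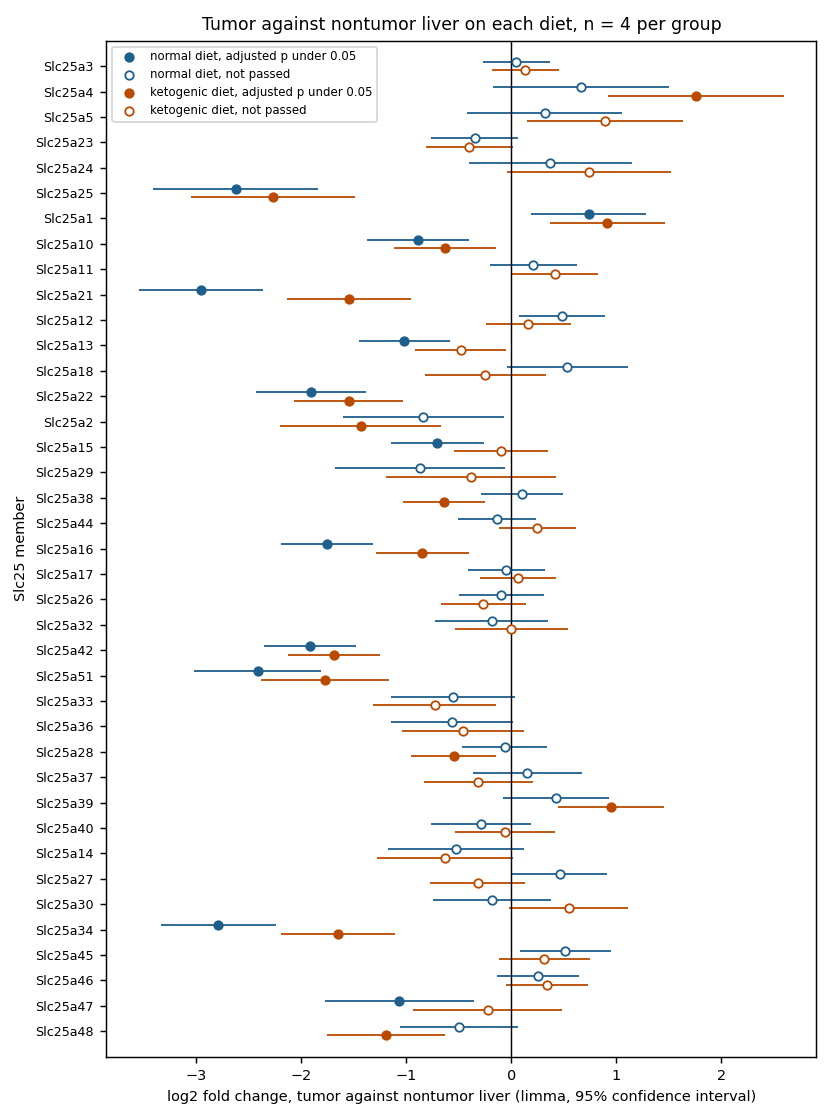
Log2 fold change (x axis) of each named member (y axis) in tumor against nontumor liver, with 95% confidence intervals from limma; blue is ND, orange is KD, and filled points have an adjusted p under 0.05. The filled points reach -2.95 on the lower side, and the highest is Slc25a4 on KD at 1.76.

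Among the cofactor carriers, Slc25a16 and Slc25a42, both tied to coenzyme A import into the matrix, and Slc25a51, which carries NAD, were lower on each diet, and 0 were higher. The peroxisomal carrier Slc25a17, the S-adenosylmethionine carrier Slc25a26 and the folate and FAD carrier Slc25a32 did not pass on either diet.

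Slc25a51 (chr4:45395923-45408766, minus strand, GRCm38) had 146, 114, 109 and 88.3 rescaled TPM in the 4 ND nontumor libraries and 15.3, 18.1, 26.2 and 23.5 in the 4 ND tumors. On KD the values were 40.2, 36.2, 104 and 76.3 in nontumor liver and 13.8, 16.4, 16.2 and 19.7 in tumors. All tumors lay below all nontumor libraries on both diets, and KD nontumor 1 and 2 lay closest to the tumors. The log2 fold changes were -2.41 ± 0.29 (SE; adjusted p = 1.46e-05) on ND and -1.77 ± 0.29 (SE; adjusted p = 0.000284) on KD. Without KD nontumor 3 and 4 the KD value was -1.17 (adjusted p = 0.00415), and without KD nontumor 1 and 2 it was -2.38 (adjusted p = 8.88e-06).

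Slc25a42 (chr8:70184340-70212305, minus strand) had 65.4, 65.7, 58.8 and 46.8 rescaled TPM in ND nontumor liver and 18.3, 13.7, 13.6 and 14.0 in ND tumors. On KD it had 45.0, 42.0, 78.3 and 67.9 in nontumor liver and 13.4, 16.3, 17.3 and 20.9 in tumors. The groups were apart on both diets, with log2 fold changes of -1.92 ± 0.21 (SE; adjusted p = 6.05e-06) and -1.69 ± 0.21 (SE; adjusted p = 2.55e-05). The promoter of this carrier, lower on both diets, is shown for its 5 CCAAT boxes, the motif bound by the factor NF-Y, in capitals; ATTGG is CCAAT on the other strand. The window runs from 250 bases before to 50 bases after the annotated start (chr8:70212232-70212531, minus strand, RefSeq, GRCm38.p6), written 5′ to 3′ on the gene's strand.

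Slc25a42: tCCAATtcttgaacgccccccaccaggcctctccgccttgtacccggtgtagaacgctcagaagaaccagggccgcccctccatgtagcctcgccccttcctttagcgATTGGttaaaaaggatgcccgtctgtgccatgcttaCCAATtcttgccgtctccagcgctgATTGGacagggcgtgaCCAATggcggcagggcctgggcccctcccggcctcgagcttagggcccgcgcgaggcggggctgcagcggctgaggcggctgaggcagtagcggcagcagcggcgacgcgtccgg

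CCAAT stands on either strand in 37.4% of the 32851 such windows of RefSeq, and in 21 of the 40 windows (52.5%) of the 31 members found there. Overlapping windows of Slc25a23 hold the same site, which is counted in each. The motif stands in windows of members that were lower, such as Slc25a21, Slc25a22, Slc25a25 and Slc25a34, and in windows of members that did not pass, such as Slc25a11, Slc25a17 and Slc25a23. A match describes letters, not binding.

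Slc25a16 (chr10:62920633-62946498, plus strand) was at 41.4, 41.3, 48.9 and 34.8 rescaled TPM in ND nontumor liver and 13.3, 13.9, 10.2 and 9.52 in ND tumors. It was at 31.1, 29.1, 26.6 and 38.5 in KD nontumor liver and 14.3, 18.0, 12.1 and 25.6 in KD tumors. The log2 fold changes were -1.75 ± 0.21 (SE; adjusted p = 1.46e-05) and -0.84 ± 0.21 (SE; adjusted p = 0.00558), and KD tumor 4 came closest to the nontumor range. Slc25a32 was at 7.61 ± 1.96 (SD, n = 4), 6.58 ± 1.63, 9.18 ± 2.73 and 9.17 ± 2.46 rescaled TPM in ND nontumor, ND tumor, KD nontumor and KD tumor, and all 4 groups overlapped.

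The 3 tested ATP-Mg/phosphate carriers, which adjust the adenine nucleotide pool of the matrix in a calcium-dependent way, behaved unequally. Slc25a25 (chr2:32414487-32451445, minus strand) had 73.6, 84.8, 66.0 and 109 rescaled TPM in ND nontumor liver and 10.4, 21.2, 12.6 and 8.54 in ND tumors. On KD it had 54.5, 48.3, 147 and 129 in nontumor liver and 11.9, 14.4, 14.8 and 30.4 in tumors. Every tumor lay below every nontumor library, with log2 fold changes of -2.62 ± 0.37 (SE; adjusted p = 7.52e-05) on ND and -2.26 ± 0.37 (SE; adjusted p = 0.000308) on KD. Without KD nontumor 3 and 4 the KD fold was -1.57 (adjusted p = 0.00856) and without KD nontumor 1 and 2 it was -2.97 (adjusted p = 2.5e-05). Slc25a23 did not pass on either diet (-0.35 ± 0.20 and -0.40 ± 0.20, SE), nor did the scarce Slc25a24 (0.37 ± 0.37 and 0.74 ± 0.37).

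Within a library, Slc25a24 therefore stood at a log2 ratio to Slc25a25 of -5.07 ± 0.56 (SD, n = 4) in ND nontumor liver and -2.07 ± 1.13 in ND tumors, and of -5.35 ± 0.64 and -2.35 ± 1.05 on KD. Slc25a24 itself stayed at 0.614 to 5.33 rescaled TPM in all 16 libraries. The ratios carry a pseudocount of 1 on both genes, which compresses them where a gene is scarce.

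Among the di- and tricarboxylate carriers, 1 of 4 was higher and 2 of 4 were lower on each diet. Slc25a21, the oxodicarboxylate carrier of lysine and tryptophan breakdown, had the largest fold on ND (chr12:56712634-57197472, minus strand). Its values were 4.995, 10.7, 12.7 and 6.67 rescaled TPM in ND nontumor liver and 0.264, 0.0825, 0.223 and 0.226 in ND tumors, where 2 to 8 reads per library were recovered. On KD they were 7.58, 6.36, 3.15 and 5.48 in nontumor liver and 1.46, 1.48, 0.459 and 1.66 in tumors. The groups were apart on both diets, and the log2 fold changes were -2.95 ± 0.28 (SE; adjusted p = 1.73e-06) and -1.54 ± 0.28 (SE; adjusted p = 0.000655). The pseudocount of 1 makes both understate the change of so scarce a gene.

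Slc25a10, the dicarboxylate carrier for malate and phosphate, had 117, 171, 189.9 and 141 rescaled TPM in ND nontumor liver and 107, 92.0, 84.0 and 54.0 in ND tumors, and 187, 148, 114 and 163 in KD nontumor liver and 83.6, 99.7, 121 and 87.9 in KD tumors. The groups were apart on ND and overlapped on KD, with log2 fold changes of -0.89 ± 0.23 (SE; adjusted p = 0.00834) and -0.63 ± 0.23 (SE; adjusted p = 0.0458). The KD call was lost without any one of 10 libraries (KD nontumor 1, 2 and 4, KD tumor 1, 2 and 4, ND nontumor 2 and 4, and ND tumor 2 and 3), with adjusted p between 0.0522 and 0.114. It was also lost without either KD nontumor pair, at -0.49 (adjusted p = 0.176) without 1 and 2 and -0.78 (adjusted p = 0.0659) without 3 and 4. Slc25a11, the oxoglutarate-malate exchanger of the malate-aspartate shuttle, did not pass (0.21 ± 0.20 and 0.41 ± 0.20, SE).

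Slc25a1, the citrate carrier that exports citrate for fat synthesis, ran the other way (chr16:17925223-17928219, minus strand). It had 98.0, 164, 178 and 137 rescaled TPM in ND nontumor liver and 289, 293, 215 and 168 in ND tumors. For KD the levels were 179.8, 174, 110.0 and 147 in nontumor liver and 290.5, 377, 296 and 198 in tumors. The groups overlapped on ND (log2 fold change 0.74 ± 0.26 SE, adjusted p = 0.0418) and did not on KD (0.91 ± 0.26 SE, adjusted p = 0.0127). The ND call was lost without any one of 9 libraries (KD nontumor 4, KD tumor 1 and 3, ND nontumor 1, 2 and 4, and ND tumor 1, 2 and 3), with adjusted p between 0.0508 and 0.135. Without KD nontumor 3 and 4 the KD value was 0.67 (adjusted p = 0.155).

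Its promoter window is printed because the MYC and MAX proteins bind the E-box CACGTG, MYC is a transgene of the model, and Slc25a1 is the member higher on both diets. The part of MYC in the level of Slc25a1 was not tested. The window (chr16:17928170-17928469, minus strand, RefSeq, GRCm38.p6, 250 bases before to 50 after the start, 5′ to 3′ on the gene's strand) has the E-box and 2 CCAAT boxes in capitals.

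Slc25a1: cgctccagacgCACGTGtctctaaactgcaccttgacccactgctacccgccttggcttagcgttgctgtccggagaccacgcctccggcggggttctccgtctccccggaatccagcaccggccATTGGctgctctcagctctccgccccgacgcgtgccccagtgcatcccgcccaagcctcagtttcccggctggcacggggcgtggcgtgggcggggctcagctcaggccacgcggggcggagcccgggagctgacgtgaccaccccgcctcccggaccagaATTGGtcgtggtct

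CACGTG, which reads the same on both strands, stands in 7.15% of all 32851 windows and in 7 of the 40 member windows (17.5%). Overlapping windows of Slc25a14 hold the same site, which is counted in each. The 6 members that carry the motif were Slc25a1, Slc25a13, Slc25a14, Slc25a15, Slc25a33 and Slc25a36. Slc25a1 was higher in tumors, Slc25a13 and Slc25a15 were lower on ND, and the other 3 did not pass on either diet. The palindromic core motif of the factor NRF1 stood in 0.971% of all windows and in 0 of the members' windows.

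Slc25a13, known as citrin, and Slc25a12, known as aralar, are the aspartate-glutamate carriers of the malate-aspartate shuttle, and Slc25a22 and Slc25a18 import glutamate. Slc25a22 was lower in tumors on both diets and Slc25a13 on ND; the other 2 did not pass. Slc25a22 (chr7:141429744-141437892, minus strand) had 145, 188, 189 and 228 rescaled TPM in ND nontumor liver and 37.6, 60.8, 62.6 and 39.3 in ND tumors. KD levels were 91.0, 81.4, 147 and 122 in nontumor liver and 29.2, 28.3, 46.7 and 44.1 in tumors. The groups were apart on both diets, with log2 fold changes of -1.90 ± 0.25 (SE; adjusted p = 3.18e-05) and -1.55 ± 0.25 (SE; adjusted p = 0.000244).

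Slc25a13 had 49.7, 53.4, 58.9 and 50.4 rescaled TPM in ND nontumor liver and 17.5, 29.9, 28.2 and 29.6 in ND tumors, all below the nontumor range. The KD libraries held 59.5, 54.3, 54.9 and 54.6 in nontumor liver and 27.1, 35.4, 49.0 and 52.7 in tumors. The log2 fold change was -1.02 ± 0.21 (SE; adjusted p = 0.00153) on ND; on KD it was -0.48 ± 0.21 (SE; adjusted p = 0.0841), which did not pass although the groups did not overlap. The log2 ratio of Slc25a13 to Slc25a12 was 3.91 ± 0.17 (SD, n = 4) in ND nontumor liver and 2.41 ± 0.43 in ND tumors, and 3.81 ± 0.20 and 3.17 ± 0.24 on KD. In every library citrin exceeded aralar. The ratio of Slc25a22 to Slc25a18 went from 7.05 ± 0.48 to 4.61 ± 0.57 on ND and from 5.96 ± 0.32 to 4.66 ± 0.33 on KD, with Slc25a18 between 0.0921 and 1.71 rescaled TPM in the 16 libraries.

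Of the 5 ornithine and other amino acid carriers, 1 was lower on ND and 2 on KD. Slc25a15, the ornithine-citrulline exchanger of the urea cycle, had 35.8, 43.1, 46.4 and 50.8 rescaled TPM in ND nontumor liver and 26.3, 32.2, 30.9 and 18.6 in ND tumors. In KD mice the values were 43.8, 40.3, 41.2 and 35.1 in nontumor liver and 25.1, 35.8, 49.0 and 44.0 in tumors. The ND groups were apart and the KD groups overlapped, with log2 fold changes of -0.70 ± 0.21 (SE; adjusted p = 0.0191) and -0.10 ± 0.21 (SE; adjusted p = 0.75). Without ND nontumor 4 or ND tumor 4 the ND call was lost, with adjusted p from 0.0511 to 0.0627. It was also lost on the deposited scale and with all listed genes scaled to 1 common sum. On KD the scarce second ornithine carrier Slc25a2 (-1.43 ± 0.36 SE, adjusted p = 0.00667) and the glycine carrier Slc25a38 (-0.64 ± 0.18 SE, adjusted p = 0.0138) were lower. Both of these calls were lost when KD nontumor 3 and 4 were left out (adjusted p of 0.11 and 0.158), and the Slc25a38 call was lost without KD tumor 2 (adjusted p = 0.0516).

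Of the 5 carriers with no substrate assigned here, 2 were lower on each diet. Slc25a34 (chr4:141618824-141623821, minus strand) had 10.1, 10.3, 11.0 and 9.30 rescaled TPM in ND nontumor liver and 1.37, 0.301, 0 and 1.24 in ND tumors, with 0 reads in ND tumor 3. For KD the levels were 7.20, 5.63, 12.4 and 8.12 in nontumor liver and 2.20, 1.85, 1.68 and 1.85 in tumors. The groups were apart, with log2 fold changes of -2.78 ± 0.26 (SE; adjusted p = 1.41e-06) and -1.65 ± 0.26 (SE; adjusted p = 0.000218). Slc25a47 (chr12:108836046-108856815, plus strand) had 566, 669, 674 and 665 rescaled TPM in ND nontumor liver and 325, 378, 223 and 322 in ND tumors. KD levels were 298, 239, 603 and 729 in nontumor liver and 212, 382, 454 and 457 in tumors, and KD nontumor 1 and 2 lay within the tumor range. It passed on ND (-1.06 ± 0.34 SE, adjusted p = 0.0256) and not on KD (-0.22 ± 0.34 SE, adjusted p = 0.635). Its KD value changed sign with the nontumor pair left out: it was -0.89 (adjusted p = 0.0302) without KD nontumor 1 and 2, which passed, and 0.42 (adjusted p = 0.392) without 3 and 4. The ND call was lost without ND nontumor 2, ND nontumor 3 or ND tumor 3 (adjusted p 0.0549 to 0.0791). That call was also lost on the deposited scale and with 1 common sum. Slc25a48 was lower on KD (-1.19 ± 0.26 SE, adjusted p = 0.00285), a call lost without KD nontumor 3 and 4 (adjusted p = 0.0856).

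Slc25a47 lies next to Slc25a29, a carrier of basic amino acids, on the opposite strand (chr12:108825873-108835883, minus strand). Whether reads were assigned by strand is not given in the sources used here. Slc25a29 was at 5.05 ± 0.797, 2.83 ± 2.20, 5.02 ± 2.70 and 3.41 ± 1.22 rescaled TPM (SD, n = 4) in ND nontumor, ND tumor, KD nontumor and KD tumor.

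**Figure D3:**
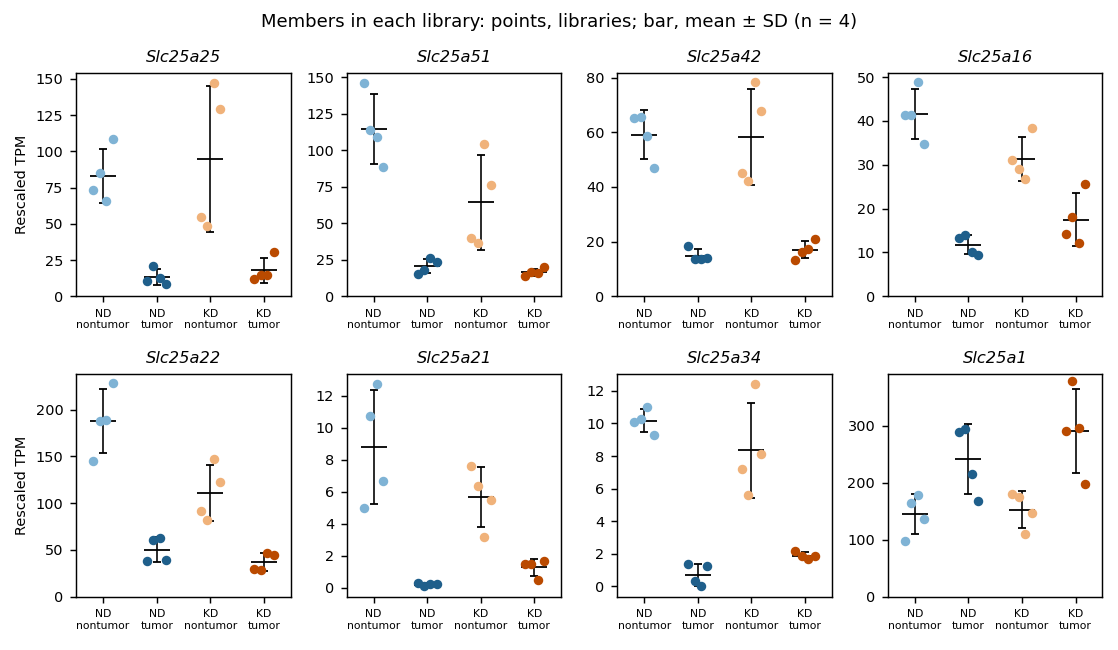
Rescaled TPM (y axis) of 8 members in each library by group; points are libraries and the bar is mean ± SD, n = 4. The tumor libraries lie below the nontumor libraries of the same diet for the first 7 members, and Slc25a1 runs the other way.

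The ADP/ATP and phosphate carriers, which move the fuel and product of oxidative phosphorylation, were not lower in tumors. On ND 0 of 3 passed. On KD the heart and muscle isoform Slc25a4 was higher (1.76 ± 0.40 SE, adjusted p = 0.00318), and Slc25a5 and Slc25a3 did not pass (0.89 ± 0.35 SE, adjusted p = 0.06 and 0.13 ± 0.15 SE, adjusted p = 0.521). Slc25a4 had 6.36, 5.12, 7.19 and 7.11 rescaled TPM in ND nontumor liver, 8.85, 10.5, 6.17 and 22.2 in ND tumors, 6.13, 14.0, 2.78 and 4.73 in KD nontumor liver and 15.4, 15.9, 30.9 and 33.5 in KD tumors. The KD groups were apart by a narrow margin, set by KD nontumor 2 and KD tumor 1. The 3 listed muscle markers summed to at most 4.80 rescaled TPM in any library and to 0 to 0.171 in KD tumors. After leaving out KD nontumor 3 and 4 the value was 1.17 (adjusted p = 0.0841).

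Slc25a3, the phosphate carrier, was at 91.1 ± 10.9, 94.0 ± 6.63, 114 ± 12.3 and 125 ± 14.3 rescaled TPM (SD, n = 4) in ND nontumor, ND tumor, KD nontumor and KD tumor. All KD tumors lay above all ND tumors, with a log2 fold change of 0.40 that did not pass. The tumor fold on ND was 0.05 ± 0.15, with a 95% interval of -0.27 to 0.37. In every group Slc25a5, the widely expressed ADP/ATP isoform, exceeded Slc25a4. The log2 ratio was 3.56 ± 0.80 and 3.21 ± 0.77 in ND nontumor liver and ND tumors, and 4.37 ± 0.48 and 3.50 ± 0.20 on KD. A Slc25a5 pseudogene is annotated, so that reads of Slc25a5 may be shared with a near-identical copy.

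Of the 4 iron and glutathione carriers, 0 passed on ND. On KD the glutathione carrier Slc25a39 was higher and the mitoferrin Slc25a28 lower. Slc25a39 (chr11:102402985-102407946, minus strand) had 113, 150.5, 184 and 154 rescaled TPM in ND nontumor liver and 226, 221, 226 and 139 in ND tumors. The KD libraries held 215, 207, 137 and 129 in nontumor liver and 295, 391, 378 and 255 in tumors. All KD tumors lay above all KD nontumor libraries, with a log2 fold change of 0.95 ± 0.24 (SE; adjusted p = 0.0063), against 0.42 ± 0.24 (SE; adjusted p = 0.2) on ND. With KD nontumor 3 and 4 left out it was 0.61 (adjusted p = 0.129). The related carrier Slc25a40 stayed scarce, and the log2 ratio of Slc25a39 to Slc25a40 was 6.24 ± 0.36, 6.95 ± 0.66, 6.48 ± 0.54 and 7.49 ± 0.37 (SD, n = 4) in ND nontumor, ND tumor, KD nontumor and KD tumor.

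The mitoferrins Slc25a37, used in red cell precursors, and Slc25a28, used more widely, import iron for heme and iron-sulfur clusters. Slc25a28 fell on KD by 0.54 on the log2 scale (adjusted p = 0.0383), a call lost without KD nontumor 3 or 4 or KD tumor 1, 2 or 3 (adjusted p 0.0566 to 0.131). The Slc25a28 value on KD was -0.19 (adjusted p = 0.54) without KD nontumor 3 and 4 and -0.91 (adjusted p = 0.00118) without 1 and 2. Slc25a37 did not pass. The log2 ratio of Slc25a37 to Slc25a28 lay close to 0 in all groups, from -0.18 ± 0.23 in ND nontumor liver to 0.15 ± 0.34 in KD tumors. Red blood cell markers fell in tumors on ND (4 of 4 tested lower), with sums of 1204 to 6701 rescaled TPM against 273 to 1392. On KD, where Slc25a28 was called, 0 of the 4 were lower and 0 higher. The KD sums overlapped, at 575 to 2165 in nontumor liver and 479 to 3336 in tumors.

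The pyrimidine nucleotide carriers Slc25a33 and Slc25a36 and the uncoupling-protein-like carriers Slc25a14, Slc25a27 and Slc25a30 held 0 members that passed in tumor against nontumor liver on either diet. Slc25a33 came closest, with -0.73 ± 0.28 (SE; adjusted p = 0.0543) on KD. The log2 ratio of Slc25a33 to Slc25a36 was 1.03 ± 1.03 and 1.04 ± 0.05 in ND nontumor liver and ND tumors and 1.97 ± 0.47 and 1.70 ± 0.22 on KD (SD, n = 4), and ND nontumor 4 had the lowest value, at -0.23.

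**Figure D4:**
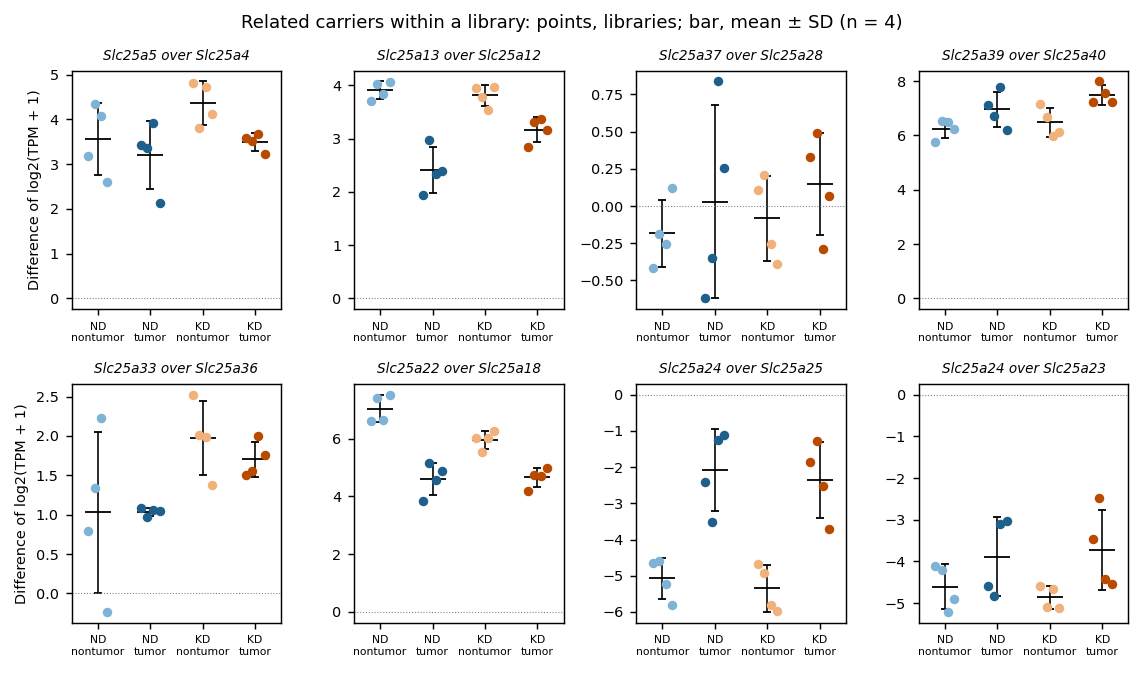
Differences of log2(rescaled TPM + 1) between 8 pairs of related carriers (y axis) in each library by group; points are libraries, the bar is mean ± SD, n = 4. Slc25a13 over Slc25a12, Slc25a22 over Slc25a18 and Slc25a24 over Slc25a25 separate tumors from nontumor liver, and Slc25a37 over Slc25a28 does not.

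The ketogenic diet was compared with the normal diet within tumors, where 5 members were higher and 4 lower on KD (12.5% and 10%, against 7.21% and 8.49% of all tested genes). The groups did not overlap for 7 members on the higher and 4 on the lower side, against 12.3% and 10.5% of all genes. The members' median log2 fold change was 0.20, against 0.03 over all genes. The members higher on KD were Slc25a5, Slc25a30, Slc25a21, Slc25a34 and Slc25a44, and those lower included Slc25a27, Slc25a28 and Slc25a38. When all listed genes were scaled to 1 common sum, the split was 2 higher and 7 lower, the median of all genes moved to -0.33, and 12 members were positive in place of 24. Slc25a30, Slc25a34 and Slc25a44 then lost their call. The share of the TPM total held by the listed genes also separates ND from KD tumors, as given above. Its part in these calls was not tested.

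Slc25a5 had 105, 116, 108 and 101 rescaled TPM in ND tumors and 196, 192, 406 and 321 in KD tumors. KD tumor 3 and 4 held the 2 highest values, and the groups were apart, with a log2 fold change of 1.29 ± 0.35 (SE; adjusted p = 0.0219). In nontumor liver Slc25a5 had 66.0, 124, 138 and 48.5 on ND and 199.9, 208, 98.6 and 99.5 on KD, where KD nontumor 1 and 2 were higher than 3 and 4. Slc25a4 differed in tumors by 1.00 ± 0.40 (SE; adjusted p = 0.0919), which did not pass.

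Slc25a30, an uncoupling-protein-like carrier, had 20.3, 16.6, 18.5 and 14.7 rescaled TPM in ND tumors and 41.1, 49.0, 26.8 and 33.3 in KD tumors, a log2 fold change of 1.03 ± 0.27 (SE; adjusted p = 0.018). Slc25a44, which carries branched-chain amino acids into mitochondria, had 23.7, 25.3, 19.5 and 17.7 in ND tumors and 26.1, 32.9, 39.2 and 34.9 in KD tumors, a log2 fold change of 0.60 ± 0.17 (SE; adjusted p = 0.0293) with groups apart by less than 1 TPM. Slc25a21 (0.88 ± 0.28 SE, adjusted p = 0.0416) and Slc25a34 (0.83 ± 0.26 SE, adjusted p = 0.0381) were higher on KD but stayed far below nontumor levels, at 1.27 ± 0.545 and 1.89 ± 0.221 rescaled TPM (SD, n = 4). The Slc25a21 call was lost with voom on the recovered reads and with no filter on low values. The Slc25a34 call was lost with no such filter and with only the groups compared.

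On the lower side, Slc25a27 had 10.5, 6.33, 11.3 and 7.28 rescaled TPM in ND tumors and 4.55, 4.38, 4.42 and 5.67 in KD tumors (-0.75 ± 0.21 SE, adjusted p = 0.0278). Slc25a28 had 33.1, 28.5, 30.8 and 26.1 in ND tumors and 18.9, 14.8, 19.6 and 20.3 in KD tumors (-0.66 ± 0.19 SE, adjusted p = 0.0289). Slc25a38 had 63.2, 47.5, 52.7 and 36.8 in ND tumors and 36.7, 25.0, 33.8 and 29.7 in KD tumors (-0.65 ± 0.18 SE, adjusted p = 0.0268). Slc25a28 imports iron and Slc25a38 glycine, and in each of these 3 members all KD tumors lay below all ND tumors.

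With 1 library left out at a time, Slc25a5 lost its diet call in tumors without KD tumor 3, KD tumor 4 or ND tumor 1 (adjusted p 0.0531 to 0.0749), Slc25a30 without KD tumor 2 (adjusted p = 0.0545) and Slc25a44 without KD tumor 2, 3 or 4 or ND tumor 3 or 4 (adjusted p 0.0582 to 0.0932). Slc25a21 lost it without any of 8 libraries, namely KD nontumor 4, KD tumor 1, 2 and 4 and ND tumor 1, 2, 3 and 4 (adjusted p 0.0529 to 0.108). Slc25a34 lost it without any of KD tumor 1, 2, 3 and 4 and ND tumor 2 and 3 (adjusted p 0.069 to 0.105). Slc25a27 lost it without KD tumor 1, 2 or 3 or ND tumor 1 or 3 (adjusted p 0.0505 to 0.0797), Slc25a28 without KD tumor 2 or 3 or ND tumor 1 or 3 (adjusted p 0.0562 to 0.0792) and Slc25a38 without KD tumor 2 or 4 or ND tumor 1 or 3 (adjusted p 0.0626 to 0.0853).

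**Figure D5:**
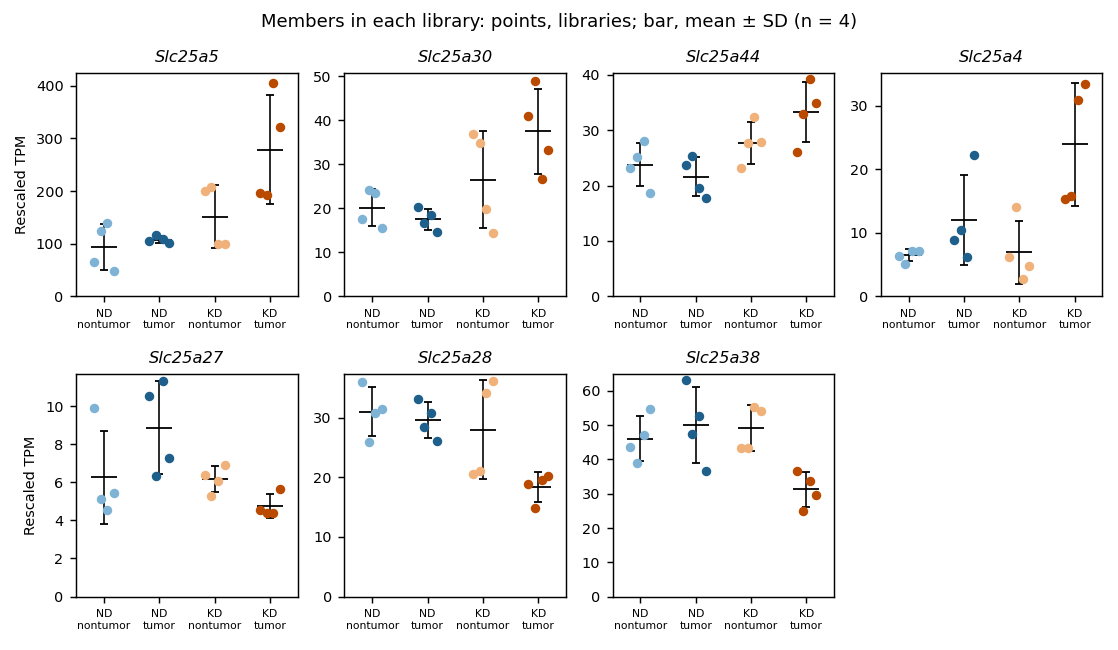
Rescaled TPM (y axis) of 7 members in each library by group; points are libraries and the bar is mean ± SD, n = 4. KD tumors lie above ND tumors for Slc25a5, Slc25a30 and Slc25a44 and below them for Slc25a27, Slc25a28 and Slc25a38, while the tumor groups of Slc25a4 overlap.

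In nontumor liver 0 of 40 members passed between the diets in either direction with limma, and 0 with voom on the recovered reads (background 0.00744% higher and 0.0372% lower). At an unadjusted p under 0.05 there were 0 higher and 3 lower with limma, against 4.82% and 4.09% of all tested genes. With voom there were 1 higher and 3 lower, against 4.27% and 3.54%. Those lower in limma included Slc25a51 (-0.93 ± 0.29 SE, adjusted p = 0.269) and Slc25a22 (-0.78 ± 0.25 SE, adjusted p = 0.288). After leaving out KD nontumor 3 and 4, Slc25a51 passed, at -1.53 (adjusted p = 0.00524). The direction depends on scaling: 20 members were positive and 20 negative after rescaling, and all 40 were positive on the deposited scale, where the median of all genes was 0.69. The deposited scale without ND nontumor 4 gave 27 positive and 13 negative, and 1 common sum gave 25 and 15.

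The difference between the 2 diet effects, in tumor minus in nontumor liver, passed for 0 of 40 members with limma and 0 with voom (background 0.208% higher and 0.402% lower). Of all tested genes, 8.65% were higher and 9.3% lower at an unadjusted p under 0.05 with limma, and 9.14% and 8.82% with voom. Among the members there were 3 higher and 2 lower with both tools, or 7.5% and 5%. The largest was Slc25a21, at 1.41 ± 0.39 (SE; adjusted p = 0.0945) with a 95% interval of 0.58 to 2.25, followed by Slc25a34 (1.14 ± 0.36 SE, adjusted p = 0.135) and Slc25a16 (0.91 ± 0.29 SE, adjusted p = 0.139), and on the lower side Slc25a27 (-0.78 ± 0.30 SE, adjusted p = 0.195) and Slc25a38 (-0.74 ± 0.26 SE, adjusted p = 0.163). A difference between diets in how far tumors departed from nontumor liver was thus not shown for any member by this test.

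The KD nontumor pairs differed most in 6 members. Slc25a4 (1.15), Slc25a30 (1.04) and Slc25a5 (1.03) were higher in KD nontumor 1 and 2 than in 3 and 4, by these log2 differences, and Slc25a25 (-1.41), Slc25a47 (-1.31) and Slc25a51 (-1.21) were lower. With KD nontumor 3 and 4 left out, 0 members were higher and 8 lower in KD tumors, against 6.37% and 8.2% of all tested genes, and without KD nontumor 1 and 2, 5 were higher and 13 lower, against 19.7% and 19.1%. The calls over all genes also fell in number without 3 and 4.

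Without KD nontumor 1 and 2, the KD tumor fold was -2.06 (adjusted p = 6.49e-06) for Slc25a42, -1.87 (adjusted p = 0.000145) for Slc25a22, -1.93 (adjusted p = 0.000212) for Slc25a34, -1.23 (adjusted p = 0.00972) for Slc25a21 and -0.89 (adjusted p = 0.0153) for Slc25a16. Without 3 and 4 these were -1.33 (adjusted p = 0.000669), -1.24 (adjusted p = 0.00755), -1.35 (adjusted p = 0.00631), -1.83 (adjusted p = 0.00158) and -0.81 (adjusted p = 0.044), so that all 5 passed without either pair. The calls of Slc25a1, Slc25a2, Slc25a4, Slc25a38, Slc25a39 and Slc25a48, lost without 3 and 4 as given above, passed without 1 and 2, at 1.14 (adjusted p = 0.00891), -1.70 (adjusted p = 0.00612), 2.32 (adjusted p = 0.000527), -0.81 (adjusted p = 0.00945), 1.27 (adjusted p = 0.00149) and -1.60 (adjusted p = 0.000593). Slc25a5 and Slc25a30, which did not pass with all libraries, passed as higher without 1 and 2, at 1.40 (adjusted p = 0.00958) and 1.06 (adjusted p = 0.00397), but not without 3 and 4, at 0.37 (adjusted p = 0.589) and 0.02 (adjusted p = 0.972).

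Genes around the carriers were taken from 5 lists, whose counts stand beside the shares of all tested genes given above: 14.5% higher and 14.2% lower in ND tumors, 16.3% and 16.2% in KD tumors, and 7.21% and 8.49% between the diets in tumors. On the deposited scale 0 genes of any of these lists passed between the diets in tumors. Of 4 tested relatives outside the name pattern, Ucp2, the uncoupling protein of macrophages and other cells, was higher in tumors on ND (1.32 ± 0.33 SE, adjusted p = 0.00684) and KD (1.49 ± 0.33 SE, adjusted p = 0.00292). The carnitine carrier Slc25a20 was lower in tumors on ND (-1.16 ± 0.22 SE, adjusted p = 0.00081) and higher in KD than in ND tumors (0.82 ± 0.22 SE, adjusted p = 0.0193), as were the outer membrane proteins Mtch1 (0.64 ± 0.19 SE, adjusted p = 0.0314) and Mtch2 (0.69 ± 0.22 SE, adjusted p = 0.0421). Mtch2 was also lower in ND tumors (-0.90 ± 0.22 SE, adjusted p = 0.00534). With 1 common sum 0 of the 4 relatives passed between the diets in tumors. In KD tumors the log2 fold change of Ucp2 was 2.05 (adjusted p = 0.000287) without KD nontumor 1 and 2 and 0.90 (adjusted p = 0.0897) without 3 and 4. The monocyte and macrophage sums given above moved with Ucp2, and their part in it was not tested.

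Of 16 genes of the machinery that imports carriers, 3 were higher and 1 lower in ND tumors, and 9 higher and 0 lower in KD tumors. The counts higher, on ND and KD, were 2 and 1 on the deposited scale, 2 and 7 there without ND nontumor 4, and 8 and 7 with 1 common sum. On KD they were 10 without KD nontumor 1 and 2 and 4 without 3 and 4. Tomm5, a small subunit of the outer membrane pore, was at 17.5 ± 3.30 rescaled TPM (SD, n = 4) in ND nontumor liver and 53.7 ± 12.7 in ND tumors, and at 22.5 ± 13.8 and 99.0 ± 28.6 on KD. Its log2 fold changes were 1.55 ± 0.33 (SE; adjusted p = 0.00239) and 2.23 ± 0.33 (SE; adjusted p = 0.000151). Without KD nontumor 1 and 2 its KD value was 2.91 (adjusted p = 5.06e-06) and without 3 and 4 it was 1.54 (adjusted p = 0.00305). The receptor Tomm22 was higher on KD (1.32 ± 0.20 SE, adjusted p = 0.000173). Between the diets in tumors 3 of 16 were higher on KD, Timm29 (1.09 ± 0.17 SE, adjusted p = 0.00165), Tomm70a (0.97 ± 0.18 SE, adjusted p = 0.00337) and Timm10 (1.59 ± 0.39 SE, adjusted p = 0.0154), and 0 lower.

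The 5 genes of the mitochondrial pyruvate carrier and the outer membrane channels showed 0 calls in ND tumors and 3 higher in KD tumors. All 5 were higher in KD than in ND tumors, led by Mpc2 (1.62 ± 0.36 SE, adjusted p = 0.00874) and Mpc1 (1.29 ± 0.33 SE, adjusted p = 0.0188), the subunits of the pyruvate carrier. That count was 2 on the deposited scale without ND nontumor 4 and 1 with 1 common sum. In KD tumors the 3 became 0 on the deposited scale, with or without ND nontumor 4, with 1 common sum and without KD nontumor 3 and 4, and 4 without 1 and 2. Of 11 markers of mitochondrial content, 0 were higher and 1 lower in ND tumors, 2 higher and 0 lower in KD tumors, and 6 higher and 0 lower in KD against ND tumors. The 2 became 0 on the deposited scale and without KD nontumor 3 and 4, 1 with 1 common sum and 3 without KD nontumor 1 and 2, and the 6 became 1 with 1 common sum. Citrate synthase, Cs, was at 33.9 ± 8.37 rescaled TPM (SD, n = 4) in ND nontumor liver, 16.4 ± 2.91 in ND tumors, 32.5 ± 5.38 in KD nontumor liver and 32.4 ± 4.22 in KD tumors.

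Of 13 enzymes that use what the carriers bring, 0 were higher and 8 lower in ND tumors, and 2 higher and 4 lower in KD tumors. On the deposited scale 1 was lower on each diet and 0 were higher; without ND nontumor 4 there, 8 were lower on ND and 5 on KD. In KD tumors 1 was higher and 2 lower without KD nontumor 3 and 4, and 3 were higher and 4 lower without 1 and 2. Oat, the matrix ornithine aminotransferase, was at 391 ± 223 rescaled TPM (SD, n = 4) in ND nontumor liver and 10.4 ± 3.96 in ND tumors, with a log2 fold change of -4.97 ± 0.43 (SE; adjusted p = 7.74e-07). On KD it was at 229 ± 66.5 and 70.6 ± 49.6 (-1.85 ± 0.43 SE, adjusted p = 0.00426). That fold was -1.84 (adjusted p = 0.0178) without KD nontumor 1 and 2 and -1.87 (adjusted p = 0.0311) without 3 and 4. The difference between the diet effects passed, at 3.13 ± 0.61 (SE; adjusted p = 0.0337). Cps1, which opens the urea cycle and also stands among the hepatocyte markers, was lower in tumors on both diets (-2.45 ± 0.28 SE, adjusted p = 9.42e-06 and -1.65 ± 0.28 SE, adjusted p = 0.000394). Between the diets in tumors 5 of 13 were higher on KD, Oat, Mdh1, Mdh2, Got2 and Glud1, and 0 were lower.

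On the scale as deposited, where the median of all genes was 0.42 in ND tumors and -0.26 in KD tumors against nontumor liver, 0 members were higher and 3 lower in ND tumors (8.14% and 2.41% of all genes) and 0 higher and 7 lower in KD tumors (2.88% and 5.39%). Slc25a21, Slc25a25 and Slc25a34 were the 3 lower on ND. With ND nontumor 4 left out on that scale the counts were 0 and 13 on ND (9.13% and 13.7%) and 3 and 17 on KD (8.87% and 24.3%). The tumor falls of Slc25a21, Slc25a25, Slc25a34, Slc25a42 and Slc25a51 on KD passed on the rescaled and the deposited scale, with the listed genes scaled to 1 common sum, and without either KD nontumor pair. Between the diets in tumors, the deposited scale gave 0 higher and 0 lower (0.29% and 0.551% of all genes). At an unadjusted p under 0.05 it gave 1 higher and 0 lower (3.54% and 4.71% of all genes). Without ND nontumor 4 the deposited scale gave 4 higher and 2 lower at an adjusted p under 0.05 (5.55% and 6.36%).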

How the data were processed

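RNA-seq was run on polyadenylated RNA of 16 liver samples from 8 mice, in 4 groups of 4. Per the submitters' processing notes, FastQC, HISAT2, SAMtools, featureCounts and mm10 were used; versions, annotation and the step from counts to TPM are not given in the sources used here. The authors deposited TPM for 20601 genes. Columns of nontumor liver are lettered P, titles N; diet letters and number matched them.

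TPM was divided by median-of-ratios factors over 12119 genes, and log2(value + 1) was tested with limma 3.58.1 (R 4.3.3, variance trend, 16 libraries, no block) over 13432 genes, with Benjamini-Hochberg adjusted p under 0.05 (two-sided). Fold changes on this scale understate changes of scarce genes. Whole reads were recovered from TPM steps for 20600 genes (within 0.001 reads) and gave the depth and a voom fit; the scripts were tested on simulated data. Both tissues came from the livers of these 8 mice, no label ties a replicate number to a mouse, and p-values reflect only the variation among these libraries. Within a group, no 2 libraries were copies (chi-square per degree of freedom at least 12.2).

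The members, gene lists and markers were chosen with earlier results of these data known. Library values are given for up to 6 members per direction and comparison. These had the largest change, groups apart and a mean of at least 5 rescaled TPM in the higher group. The members of 8 related pairs and Slc25a1, Slc25a3, Slc25a10, Slc25a11, Slc25a15, Slc25a32 and Slc25a47 were named whatever they did. Some of them, such as Slc25a3, Slc25a11 and Slc25a12, are given only as means, ranges, ratios or fold changes. Slc25a16 in tumor against nontumor liver was added after its values were seen. Of the members, 1 stands in the counts, medians and sums only and is not reported here by itself. Up to 3 genes per other list, those with the smallest p, are named with values. Gene positions are from GENCODE M21 (GRCm38) and promoters from RefSeq. Alternatives were the deposited scale, 1 common sum, a pseudocount of 0.1, no filter, only the groups compared, sample weights, a replicate block, voom, a log2 fold change of at least 1 and each library left out; 3 more, chosen after seeing the data, left out pairs of KD nontumor libraries or, on the deposited scale, ND nontumor 4.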

Additional observations from a re-analysis of the deposited data

Results flagged for a closer look

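In 11 of 160 sets of 4 libraries (40 members in 4 groups), 1 library lay far from the other 3 by Dixon's test; chance gives about 1 in 20. The part of chance was not tested further, and no value was left out for it. All values are rescaled TPM.

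KD tumor 1 was low in Slc25a3 (103.5, others 131 to 133) and in Slc25a32 (5.53, others 9.90 to 10.9). Slc25a13 was high in KD nontumor 1 (59.5, others 54.3 to 54.9) and low in ND tumor 1 (17.5, others 28.2 to 29.9). Slc25a21 was low in KD tumor 3 (0.459, others 1.46 to 1.66), and Slc25a27 was high in KD tumor 4 (5.67, others 4.38 to 4.55). Slc25a32 was low in ND tumor 3 (4.15, others 7.11 to 7.56). Slc25a39 was low in ND tumor 4 (138.9, others 221 to 226), a value within the ND nontumor range. Slc25a40 was low in ND nontumor 2 (0.638, others 1.07 to 1.12), Slc25a42 was high in ND tumor 1 (18.3, the 3 others at most 14.05) and Slc25a47 was low in ND nontumor 1 (565.8, others 665 to 674).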

How the results depend on the processing

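No call among the members changed direction under any alternative run. Of 38 calls, 28 were lost on the deposited scale but 5 on that scale without ND nontumor 4, 1 without KD nontumor 1 and 2, 8 without KD nontumor 3 and 4, 6 with 1 common sum, 5 with only the groups compared, 4 with no filter, 1 each with sample weights and voom, and 0 with a pseudocount of 0.1. When a log2 fold change of at least 1 in size was also asked for, 17 of the 38 calls were lost. Members higher in ND tumors numbered 0 on the deposited scale (also without ND nontumor 4), with no filter, with only the groups compared and at a log2 fold change of at least 1, and 3 with 1 common sum; members lower numbered 3 on the deposited scale. Members higher in KD tumors numbered 0 on the deposited scale, 5 with sample weights, 5 without KD nontumor 1 and 2, 0 without KD nontumor 3 and 4 and 1 at a log2 fold change of at least 1; members lower numbered 7 on the deposited scale and 8 without KD nontumor 3 and 4. Between the diets in tumors, members higher numbered 0 on the deposited scale, 2 with 1 common sum, 3 with no filter and 2 at a log2 fold change of at least 1, and members lower 0, 7, 4 and 0; on the deposited scale without ND nontumor 4 there were 2 lower. In nontumor liver 3 were lower with sample weights and 1 without KD nontumor 3 and 4. For the difference between diet effects, 2 were higher with sample weights, 2 higher and 2 lower without KD nontumor 1 and 2, and 1 lower with 1 common sum. The cause of these shifts was not tested.

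Leaving out each library in turn gave 0 to 2 higher and 11 to 13 lower on ND, 3 to 5 higher and 10 to 14 lower on KD, 1 to 6 higher and 1 to 4 lower between the diets in tumors, and 0 to 0 for both directions in nontumor liver and for the difference between diet effects. The count higher on KD was 5 without KD nontumor 1. The counts in tumors were lowest without KD tumor 2 (1 higher, 1 lower). Of 32 log2 ratios of related carriers, 17 moved by more than 1 SD with a pseudocount of 0.1.

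No label ties a replicate number to a mouse, and the numbers were not taken to pair the samples: same-number correlations of deviations ran from -0.112 to 0.164. With the replicate number as a fixed block 2 calls were lost (Slc25a1 on ND, which left 0 higher, and Slc25a10 on KD), and with a random block 0 (correlation -0.0214). Depth limits scarce members such as Slc25a18, with 1 to 18 reads per library.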
